A study of Mus musculus with 6 samples.

Results

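The collagen genes of the newborn mouse eye were taken from whole eyeball RNA as every gene whose symbol has the form Col, number, a, number and that at least 1 probe set of the array names alone. There were 36 such genes among 12393 genes with a probe set of their own, read by 58 probe sets. Of these genes, 19 had more than 1 probe set and 17 had 1, and each gene is described by its brightest probe set over all arrays unless another is named. The 6 samples were individual eyeballs of newborn mice at postnatal day 1 on a mixed strain background, with 1 array each, described as biological replicates. The 3 Brg1 cKO pups carried Brg1 flox/flox alleles and the Le-Cre transgene, and the 3 controls are labelled wild type. Per the study's methods these were littermates. The study's controls elsewhere were Brg1 flox/flox without Cre, so the controls of these arrays may share those alleles.

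Brg1 is the product of Smarca4 and drives SWI/SNF complexes, which use ATP to move nucleosomes. Le-Cre is driven by an ectodermal enhancer of Pax6 and is active in the head surface ectoderm that forms the lens, the corneal epithelium and the epidermis of the lids, and not in the retina, sclera, vessels or muscle. Per the study the deletion was incomplete in many embryos and occasionally passed through the germline, whole eyeballs were taken because the mutant lenses were fragile, and no Cre control without floxed alleles was hybridised. The study reports that Le-Cre mice looked no different from wild type, but their transcripts were not measured on these arrays. Thus effects of Cre and of Brg1 loss on the transcripts cannot be told apart.

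Smarca4, the deleted gene, was read by 2 probe sets that did not give the same answer, so it does not check the labels. The brighter one read 10.11, 9.82 and 9.81 in replicates 1 to 3 of the wild type and 10.35, 9.93 and 9.98 in those of the mutants, a log2 difference of 0.18 (limma standard error 0.19, adjusted p = 0.866). The dimmer one read 9.21, 8.37 and 8.67 against 7.82, 7.79 and 8.55, a difference of -0.70 (limma standard error 0.30, adjusted p = 0.598). The groups overlapped in both.

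Collagens are trimers of alpha chains wound into a triple helix, and their class follows from how the trimers assemble. Fibrillar collagens form the banded fibrils of cornea and sclera. Types 2, 9 and 11 form the thin fibrils of the vitreous and of cartilage. Type 4 collagen forms the sheet-like network of basement membranes, among them the lens capsule, the inner limiting membrane of the retina, Bruch's membrane and the membranes around vessels. Its 6 chains assemble into 3 kinds of trimer, which hold the chains of Col4a1 and Col4a2, those of Col4a3, Col4a4 and Col4a5, or those of Col4a5 and Col4a6. The genes lie in head-to-head pairs, each pair transcribed in opposite directions from a shared region.

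The comparison asks how transcripts of these classes differ when Brg1 is deleted in the ectoderm. No collagen gene passed the limma test at a Benjamini-Hochberg adjusted p under 0.05, against 86 of 12393 genes (0.694%). At an unadjusted p under 0.05, 3 of 36 collagen genes passed, Col4a5, Col4a6 and Col4a4, which is 8.33% against 9.3% of all genes. With a fold over 1.5 added, Col4a5 and Col4a6 passed as lower in Brg1 cKO (5.56% against 2.85% of all genes) and 0 as higher (against 4.45%). Template matching, which correlates each probe set with genotype, chose these same 2 genes at an unadjusted p under 0.05 with the fold (5.56% against 4.37% of all genes), and after adjustment it chose 0 of all probe sets. Below, signals and differences (Brg1 cKO minus wild type) are on the log2 scale, values of 3 arrays follow replicates 1 to 3, and differences carry the standard error (SE) of the limma model.

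Sequences before the gene starts are shown for 2 of the type 4 pairs. Col4a5 and Col4a6 had the largest differences of the family, and Col4a1 and Col4a2 did not. The pair of Col4a3 and Col4a4 is not shown. The sequences are the 250 bases before each transcript start in RefSeq (GRCm38.p6), written 5′ to 3′ on the strand of the gene. Capitals mark CCAAT and GGGCGG or their reverse complements, the CCAAT box and the GC box. Of the 36 collagen genes, 27 had such a window.
Col4a5, plus strand, chrX:141475169-141475418: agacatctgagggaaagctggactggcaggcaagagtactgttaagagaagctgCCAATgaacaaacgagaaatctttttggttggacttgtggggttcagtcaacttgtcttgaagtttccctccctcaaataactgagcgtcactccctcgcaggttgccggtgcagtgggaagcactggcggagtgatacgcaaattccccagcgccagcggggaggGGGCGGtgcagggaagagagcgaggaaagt
Col4a6, minus strand, chrX:141474077-141474326: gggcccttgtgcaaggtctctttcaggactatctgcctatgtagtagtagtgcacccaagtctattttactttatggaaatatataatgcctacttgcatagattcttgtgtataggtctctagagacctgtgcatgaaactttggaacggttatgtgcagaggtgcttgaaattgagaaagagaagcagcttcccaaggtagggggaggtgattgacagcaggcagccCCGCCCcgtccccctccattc
Col4a1, minus strand, chr8:11312827-11313076: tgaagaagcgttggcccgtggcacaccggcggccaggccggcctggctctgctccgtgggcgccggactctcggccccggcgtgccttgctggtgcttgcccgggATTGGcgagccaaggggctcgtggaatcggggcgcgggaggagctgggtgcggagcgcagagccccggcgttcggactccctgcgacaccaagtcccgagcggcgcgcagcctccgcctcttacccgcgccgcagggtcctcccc
Col4a2, plus strand, chr8:11312555-11312804: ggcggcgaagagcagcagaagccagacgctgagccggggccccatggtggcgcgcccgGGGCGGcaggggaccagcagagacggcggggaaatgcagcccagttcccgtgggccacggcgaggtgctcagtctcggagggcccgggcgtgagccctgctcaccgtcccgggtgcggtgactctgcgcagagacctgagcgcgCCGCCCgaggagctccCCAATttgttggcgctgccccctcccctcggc
The starts of Col4a5 and Col4a6 lie 1343 bases apart on the X chromosome, and those of Col4a1 and Col4a2 lie 21 bases apart on chromosome 8. By these starts the transcripts of Col4a1 and Col4a2 overlap, so the window before each lies within the other gene. By the same starts the windows before Col4a5 and Col4a6 lie between the 2 transcripts. In the RefSeq gene spans, the end of each window nearest the start lies within its own gene. GC content was 54% for Col4a5 and 47.6% for Col4a6, against 74.4% for Col4a1 and 73.6% for Col4a2 and a median of 52.4% over all 32851 windows of this length. The windows held 10, 3, 31 and 26 CpG dinucleotides in the same order. A CCAAT box was found before Col4a5, Col4a1 and Col4a2 and not before Col4a6, and 33.8% of all windows held one. A GC box was found before Col4a5, Col4a6 and Col4a2 and not before Col4a1, against 32.7% of all windows. These are matches of letters in the windows and not measured binding sites.

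Col4a5 encodes the chain present in both minor type 4 trimers. Its signal in replicates 1 to 3 was 9.67, 9.88 and 9.57 among wild-type eyeballs and 8.56, 8.69 and 8.86 among Brg1 cKO eyeballs. All mutant values lay below all wild-type values. The difference was -1.0 (SE 0.18, 95% interval -1.42 to -0.59, n = 3 per genotype, limma adjusted p = 0.0828), a 2.0-fold lower signal. The dimmer probe set of the gene read 8.87, 9.04 and 8.82 against 7.77, 7.95 and 8.06, a difference of -0.98 with a limma adjusted p of 0.0785. The 2 probe sets kept the same order of arrays.

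Col4a6 encodes the partner of the Col4a5 chain in the third kind of trimer, which is found in the basement membranes of surface epithelia and of smooth muscle. Wild-type eyeballs read 8.84, 8.51 and 8.54 and Brg1 cKO eyeballs 7.92, 7.74 and 7.71. The groups did not overlap. The difference was -0.84 (SE 0.18, 95% interval -1.26 to -0.43, n = 3 per genotype, limma adjusted p = 0.147), or 1.79-fold lower. Its dimmer probe set read 7.55, 7.49 and 7.29 against 6.72, 6.29 and 6.68, a difference of -0.88 with a limma adjusted p of 0.164. Exact permutation of the genotypes over the 6 arrays (two-sided) gave p = 0.1 for Col4a5 and for Col4a6, the smallest that 3 arrays against 3 allow.

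The pair of Col4a1 and Col4a2 gave other values. Col4a1 and Col4a2 encode the chains of the trimer found in nearly all basement membranes, including those of vessels. Col4a1 read 12.08, 11.99 and 12.40 in wild type against 11.55, 12.69 and 12.13 in Brg1 cKO. Col4a2 read 11.58, 11.49 and 11.79 against 11.46, 12.20 and 11.69. For both genes the mutant values spanned the whole wild-type range, and Brg1 cKO replicate 2 was the highest array of all. The differences were -0.03 (SE 0.30) and 0.16 (SE 0.23), with 95% intervals of -0.74 to 0.67 and -0.38 to 0.70 and exact permutation p-values of 1.0 and 0.7. These intervals leave room for a change in either direction.

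**Figure D1:**
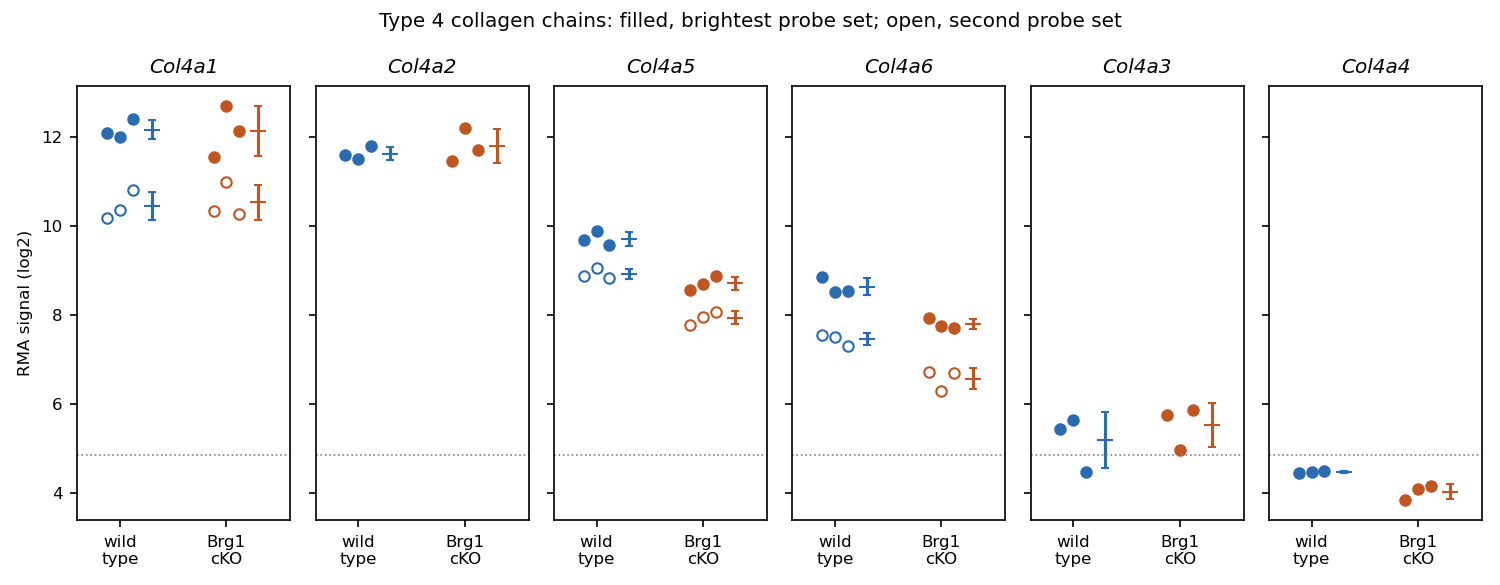
Log2 RMA signal of the 6 type 4 collagen genes in each of 3 wild-type (blue) and 3 Brg1 cKO (orange) eyeballs, with replicates 1 to 3 from left to right. Filled points are the brightest probe set, open points the second probe set where there is one, the bars beside them give the mean ± SD, and the dotted line is the 25th percentile of all values (4.84). Both probe sets of Col4a5 and of Col4a6 lie lower in all Brg1 cKO arrays, while Col4a1 and Col4a2 overlap between genotypes.

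Within each array, Col4a5 minus Col4a1 was -2.45 ± 0.36 log2 units in wild type and -3.42 ± 0.52 in Brg1 cKO (SD, n = 3). Col4a6 minus Col4a2 was -2.99 ± 0.25 in wild type and -3.99 ± 0.46 in Brg1 cKO. The groups did not overlap in either quantity, which ran from -2.82 to -2.11 against -3.99 to -2.98 for the first and from -3.25 to -2.74 against -4.45 to -3.53 for the second. Col4a5 minus Col4a6 was 1.07 ± 0.27 in wild type and 0.91 ± 0.26 in Brg1 cKO, so the genes of this pair kept their distance within the spread of the arrays. Probe sets differ in affinity, so these are differences of signal between arrays and not ratios of transcripts.

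Col4a3 and Col4a4 encode the remaining chains, which form the mature membrane of the kidney glomerulus and of parts of the eye. Both were dim, near or under the 25th percentile of all values at 4.84. Col4a3 read 5.44, 5.63 and 4.46 in wild type against 5.74, 4.96 and 5.86 in Brg1 cKO, a difference of 0.34 (SE 0.37). Col4a4 read 4.44, 4.46 and 4.48 against 3.83, 4.08 and 4.16, a difference of -0.43 (SE 0.17, limma adjusted p = 0.544). The groups did not overlap for Col4a4, but all its values lay under that percentile, where no detection call was given and differences of signal are compressed.

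Col4a5 and Col4a6 are X-linked, and the sexes were not balanced. Xist was at 4.88 in Brg1 cKO replicate 1 and between 12.3 and 12.92 in the other 5 arrays, so that 1 mutant pup was male and the others female. In the male, Col4a5 was the lowest and Col4a6 the highest of the mutants. Without this array the differences were -0.93 (limma adjusted p = 0.176) for Col4a5 and -0.91 (limma adjusted p = 0.194) for Col4a6. Over the 401 genes of the X chromosome other than Xist the median difference was 0.00, with 202 negative and 199 positive. The part of sex in the Col4a5 and Col4a6 differences was not tested.

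Lens genes gave lower signals in the mutants, and genes of corneal epithelium and epidermis moved both ways. In these bulk samples fewer cells of a type and less RNA per cell cannot be told apart. All 13 lens genes listed had negative differences, with a median of -2.51, and their summed intensity was 124425 to 140443 in wild type and 22622 to 77887 in Brg1 cKO. Their median shifts from the wild-type mean were -2.75, -0.88 and -3.43 in the mutants. Only Gja3, a lens gap junction gene, passed the limma test among them (adjusted p = 0.0319, and over 0.05 in 5 of the 6 fits that leave out 1 array, up to 0.188). Of the 10 genes of corneal epithelium and epidermis, 7 had negative and 3 positive differences. At an unadjusted p under 0.05 with a fold over 1.5, 3 were lower and 3 higher, against 2.85% and 4.45% of all genes. Krt12, the keratin of the corneal epithelium, read 9.49, 9.53 and 9.19 in wild type against 5.23, 6.01 and 5.85 in Brg1 cKO and was the only one to pass the limma test (adjusted p = 0.00194). Krt15 and Trp63, genes of basal epithelial cells, differed by -2.91 (SE 0.59) and -2.03 (SE 0.48). The 3 positive differences were those of Krtdap, Krt14 and Lor, at 1.88 (SE 0.33), 0.87 (SE 0.26) and 0.79 (SE 0.30). Lor had a wild-type mean of 4.53, under the 25th percentile of all values. Other keratins of the list, Krt1, Krt10 and Krt5, differed by -0.60 (SE 0.42), -0.37 (SE 0.22) and -0.02 (SE 0.32), and Perp by -0.59 (SE 0.29). Among the mutants, replicate 3 had the largest lens shift and the highest Col4a5. The lowest Col4a6 was in replicate 3 by the brighter probe set (7.71, against 7.74 in replicate 2). By the dimmer probe set it was in replicate 2 (6.29, against 6.68 in replicate 3). The part of lens, corneal epithelium and epidermis in the lower Col4a5 and Col4a6 signals was not tested.

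Col7a1 and Col17a1 encode collagens of epithelial attachment, the anchoring fibrils below the basement membrane and the hemidesmosomes above it. Col7a1 read 6.70, 6.60 and 6.81 in wild type against 6.01, 6.76 and 5.58 in Brg1 cKO, a difference of -0.59 (SE 0.30, limma adjusted p = 0.685). Col17a1 read 8.14, 7.50 and 7.49 against 6.61, 7.65 and 7.44, a difference of -0.48 (SE 0.32, limma adjusted p = 0.775). The groups overlapped for both, since Brg1 cKO replicate 2 lay within the wild-type range. The median shift of the class in the mutants was -0.90, 0.00 and -0.70, beside -0.87, -0.22 and -0.09 for the 10 listed genes of corneal epithelium and epidermis.

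Of the other collagens of the basement membrane zone, Col15a1 and Col18a1 encode proteoglycan-like collagens, and that of Col18a1 is the precursor of endostatin. Their differences were 0.39 (SE 0.34) and 0.36 (SE 0.22), with limma adjusted p-values of 0.826 and 0.753. The median difference of the 8 basement membrane genes was 0.06 (-0.18 without Brg1 cKO replicate 2), and it was 0.25 over the 6 genes other than Col4a5 and Col4a6.

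The probe sets of Col1a1, Col1a2 and Col3a1 gave the brightest signals of the family, while those of the other fibrillar genes ranked 6, 10 and 25, an order of signals from probe sets that differ in affinity. Col1a1 and Col1a2 encode the chains of type 1 collagen, the main fibril of cornea and sclera. Col1a1 read 13.38, 13.24 and 13.34 in wild type against 13.16, 13.15 and 13.09 in Brg1 cKO, a difference of -0.19 (SE 0.16, limma adjusted p = 0.822). These groups did not overlap, though its second probe set read 13.36, 12.81 and 13.51 against 13.06, 13.22 and 13.23, with overlap and a difference of -0.06. Col1a2 read 13.15, 12.82 and 13.38 against 12.89, 13.11 and 13.19, a difference of -0.05 (SE 0.20). Signals of this height lie near the top of the scale, where differences are compressed.

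Col3a1, the collagen of elastic and vascular tissue, read 12.72, 12.72 and 12.90 in wild type against 12.66, 12.90 and 13.04 in Brg1 cKO. The type 5 chains limit the diameter of type 1 fibrils. Col5a2 read 11.68, 11.34 and 12.36 against 11.18, 12.05 and 12.10, and Col5a1 read 11.03, 10.74 and 11.91 against 10.69, 11.59 and 11.49. The mutant values of Col5a2 and Col5a1 lay below the highest wild-type array and reached below the lowest. Col5a3 read 7.15, 6.70 and 7.34 against 6.58, 8.47 and 7.19, with Brg1 cKO replicate 2 above all wild-type arrays. The 6 fibrillar genes differed by -0.19 to 0.35, with a median of 0.01 that ran from -0.21 without wild-type replicate 2 to 0.23 without Brg1 cKO replicate 1.

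Of the 6 vitreous collagens 5 had negative differences, and none passed the adjusted or the unadjusted threshold. Col2a1, the main chain of vitreous fibrils, read 10.63, 10.86 and 10.57 in wild type against 10.77, 9.97 and 10.34 in Brg1 cKO, a difference of -0.32 (SE 0.24, limma adjusted p = 0.799). Col9a1, a chain of the type 9 collagen on the fibril surface, read 11.01, 11.64 and 11.33 against 11.24, 11.22 and 11.08, a difference of -0.14 (SE 0.21). The groups overlapped for both. The 1 positive difference was that of Col11a2 at 0.19 (SE 0.36), and the median was -0.13. Col9a2 differed by -0.28 (SE 0.18), and Col11a1 by -0.08 (SE 0.46) with wild-type values from 8.59 to 10.46.

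These genes are also expressed in cartilage. Of 8 listed cartilage genes, 4 had negative and 4 positive differences, with a median of 0.03. Of these genes 3 had a wild-type mean under the 25th percentile of all values, among them Matn1. The summed intensity of the list was 1020 to 1683 in wild type and 745 to 1731 in Brg1 cKO. Cnmd, which encodes the antiangiogenic protein chondromodulin, was the only one to pass the limma test, with 8.03, 8.36 and 8.16 in wild type against 5.55, 6.12 and 4.99 in Brg1 cKO (adjusted p = 0.0179, and 0.0911 to 0.0992 when 1 wild-type array was left out). The part of cartilage in the vitreous collagen signals was not tested. The 7 listed genes of the neural retina differed by -0.07 to 0.22.

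**Figure D2:**
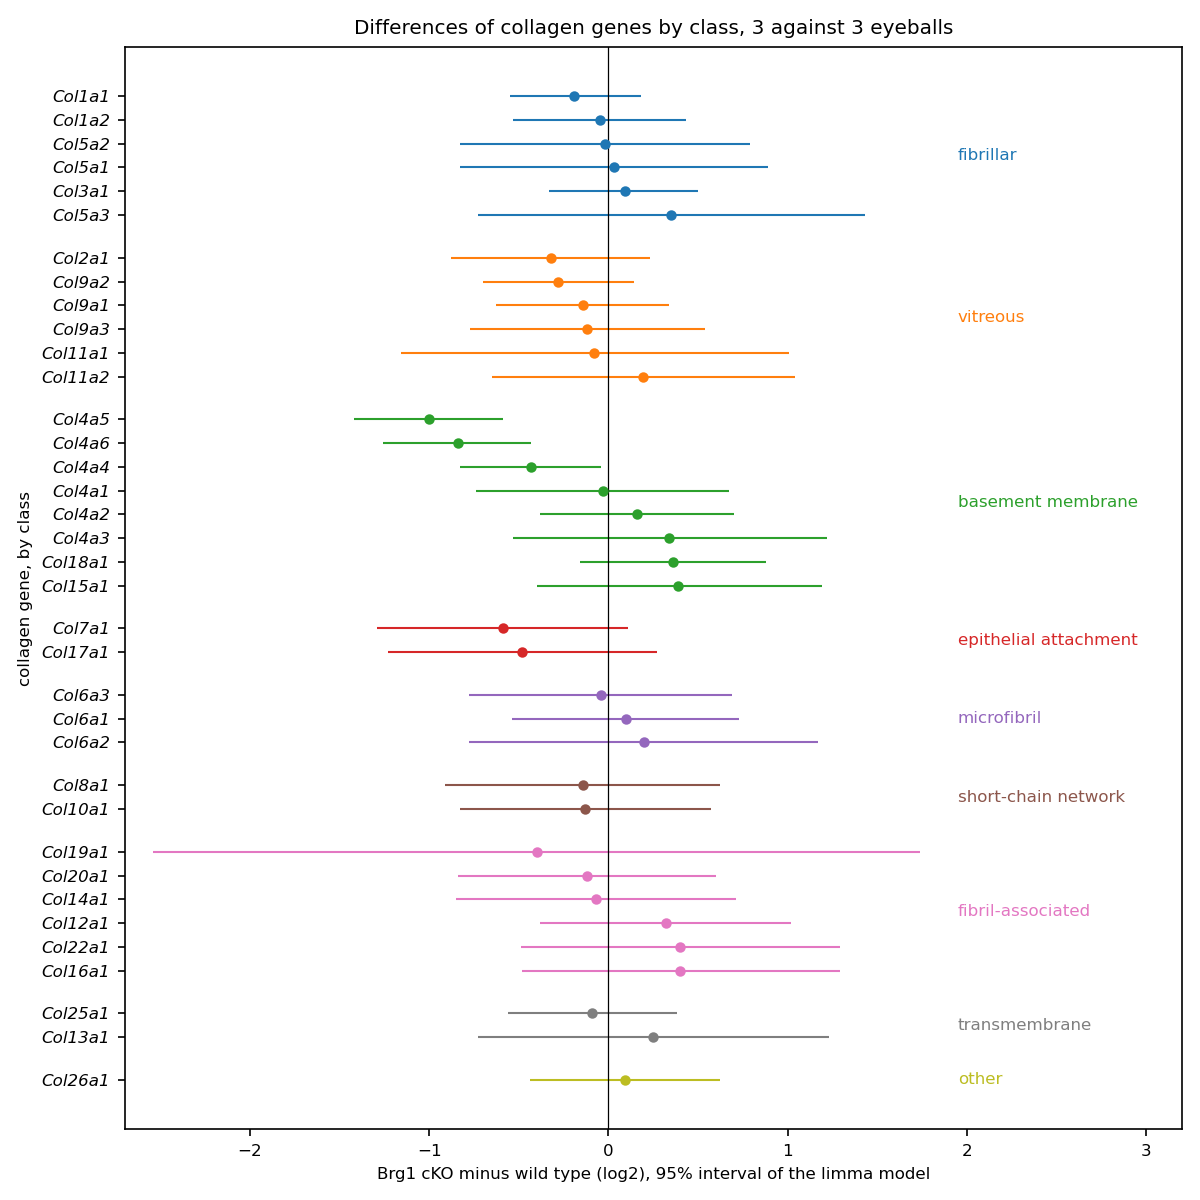
Log2 difference, Brg1 cKO minus wild type, of each of the 36 collagen genes with the 95% interval of the limma model (n = 3 per genotype), grouped by class. The intervals of Col4a5, Col4a6 and Col4a4 lie below 0, all others include 0, and no gene passed the adjusted threshold.

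Type 6 collagen forms beaded microfibrils around cells, above all in muscle and other mesenchyme. Col6a1 read 11.95, 11.74 and 12.36 in wild type against 11.70, 12.54 and 12.10 in Brg1 cKO, and Col6a2 read 10.89, 11.23 and 11.57 against 10.99, 12.39 and 10.89. In both genes wild-type replicate 3 was the highest of its group and Brg1 cKO replicate 2 the highest of all. The differences of the 3 type 6 genes were 0.10, 0.20 and -0.04, with SEs of 0.27, 0.41 and 0.31.

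That ordering of arrays was frequent in the family. Wild-type replicate 3 was the highest wild-type array for 25 of 36 collagen genes (69.4%), against 34.9% of all genes. Brg1 cKO replicate 2 was the highest mutant for 18 collagen genes (50.0%, against 36.6%) and replicate 1 the lowest for 21 (58.3%, against 28.5%). Shifts are medians over genes, taken for a control as its distance from the mean of the other 2 and for a mutant as its distance from the mean of all 3 controls, so that they compare arrays within a genotype only. The collagen genes shifted by -0.11, -0.22 and 0.35 among the wild-type arrays and -0.22, 0.23 and -0.14 among the mutants. The 11 listed skeletal muscle genes shifted by -0.32, -0.48 and 0.83 in wild type and by -0.54, 0.67 and 0.50 in Brg1 cKO, with a summed intensity of 34344 to 55151 and of 25762 to 63508. The 11 genes of endothelium and pericytes shifted by -0.23, -0.31 and 0.66 and by -0.09, 0.87 and 0.35. The 10 genes of corneal stroma and sclera shifted by -0.37, -0.32 and 0.69 and by -0.44, 0.12 and 0.11. The amount of muscle, vessel and connective tissue left on each eyeball, and its part in the collagen values, was not tested.

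**Figure D3:**
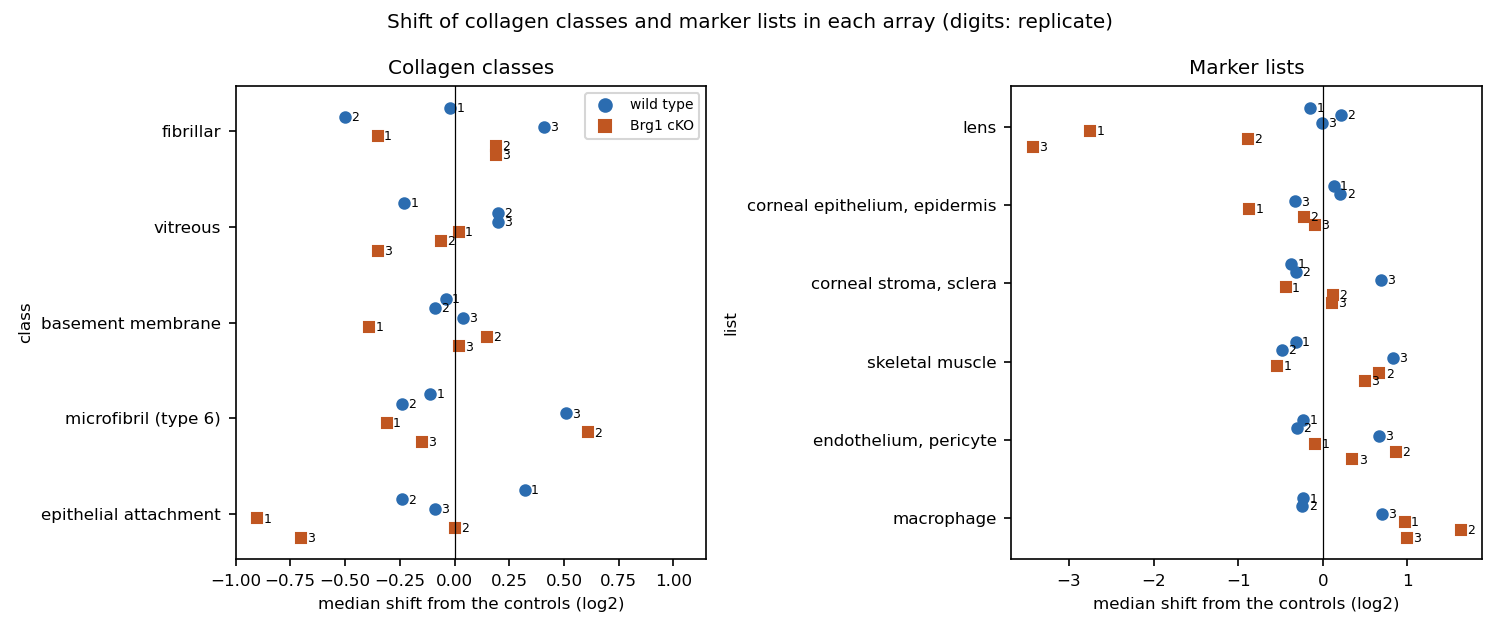
Median shift of 5 collagen classes (left) and 6 marker lists (right) in each array from the controls, in log2 units. Circles are wild type, each set against the mean of the other controls, squares are Brg1 cKO, each set against the mean of all controls, and digits give the replicate. Wild-type replicate 3 lies above the other wild-type arrays for fibrillar and type 6 collagens and for the stroma, muscle and vessel lists, and the horizontal scales of the panels differ.

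The rest of the family varied without separating the genotypes. Col16a1 and Col22a1, fibril-associated collagens, each differed by 0.40 (SE 0.38), and Col12a1, a fibril-associated collagen of cornea and tendon, by 0.32 (SE 0.30). Col8a1, a chain of the hexagonal network of Descemet's membrane, differed by -0.14 (SE 0.33). Col19a1 had the widest spread of the family, at 3.72, 7.00 and 4.39 in wild type against 3.80, 6.01 and 4.09 in Brg1 cKO. Its second probe set gave a difference of 0.57 against -0.40 here, with 3.64 in the wild-type array that read 7.00. Among the 22 dimmer probe sets of the family, 18 lay within 0.3 of the difference of the brightest, and 12 had its sign.

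Over the 36 genes, 21 differences were negative and 15 positive, with a median of -0.05 against 0.02 for all genes. It turned positive when an array was left out, at 0.17 for Brg1 cKO replicate 1 and 0.15 for wild-type replicate 3. The median size of the difference was 0.19 for collagens and 0.191 for all genes, and 91.7% of collagen genes and 84.9% of all genes differed by under 0.5. Values did not overlap for 4 collagen genes that were lower in Brg1 cKO (11.1%, against 6.38% of all genes) and for 0 that were higher (against 8.46%). Without Brg1 cKO replicate 1 the count without overlap in either direction was 10 (27.8%, against 25.7% of all genes). It was 7 (19.4%) without wild-type replicate 1 or without Brg1 cKO replicate 2, against 23.0% and 25.7% of all genes. Collagen genes had a median SD of 0.322 in wild type and 0.421 in Brg1 cKO, larger than the 0.207 and 0.294 of all genes.

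In wild-type eyeballs the signals ran from 13.32 ± 0.07 for Col1a1 to 3.91 ± 0.55 for Col10a1, the collagen of hypertrophic cartilage (log2, SD, n = 3). Col1a1, Col1a2, Col3a1, Col4a1 and Col6a1 led the order, followed by Col5a2, Col4a2, Col9a1, Col6a2 and Col5a1. Col4a5 ranked 14 and Col4a6 ranked 19. Of the 35 steps between neighbours, 26 were within the larger SD of the pair, and the clear ones near the top followed Col1a2 (0.34) and Col3a1 (0.62). Since probe sets differ in affinity and signals are not set per length, this is an order of signals and not of transcript numbers. Only Col4a4 and Col10a1 had wild-type means under the 25th percentile of all values.

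**Figure D4:**
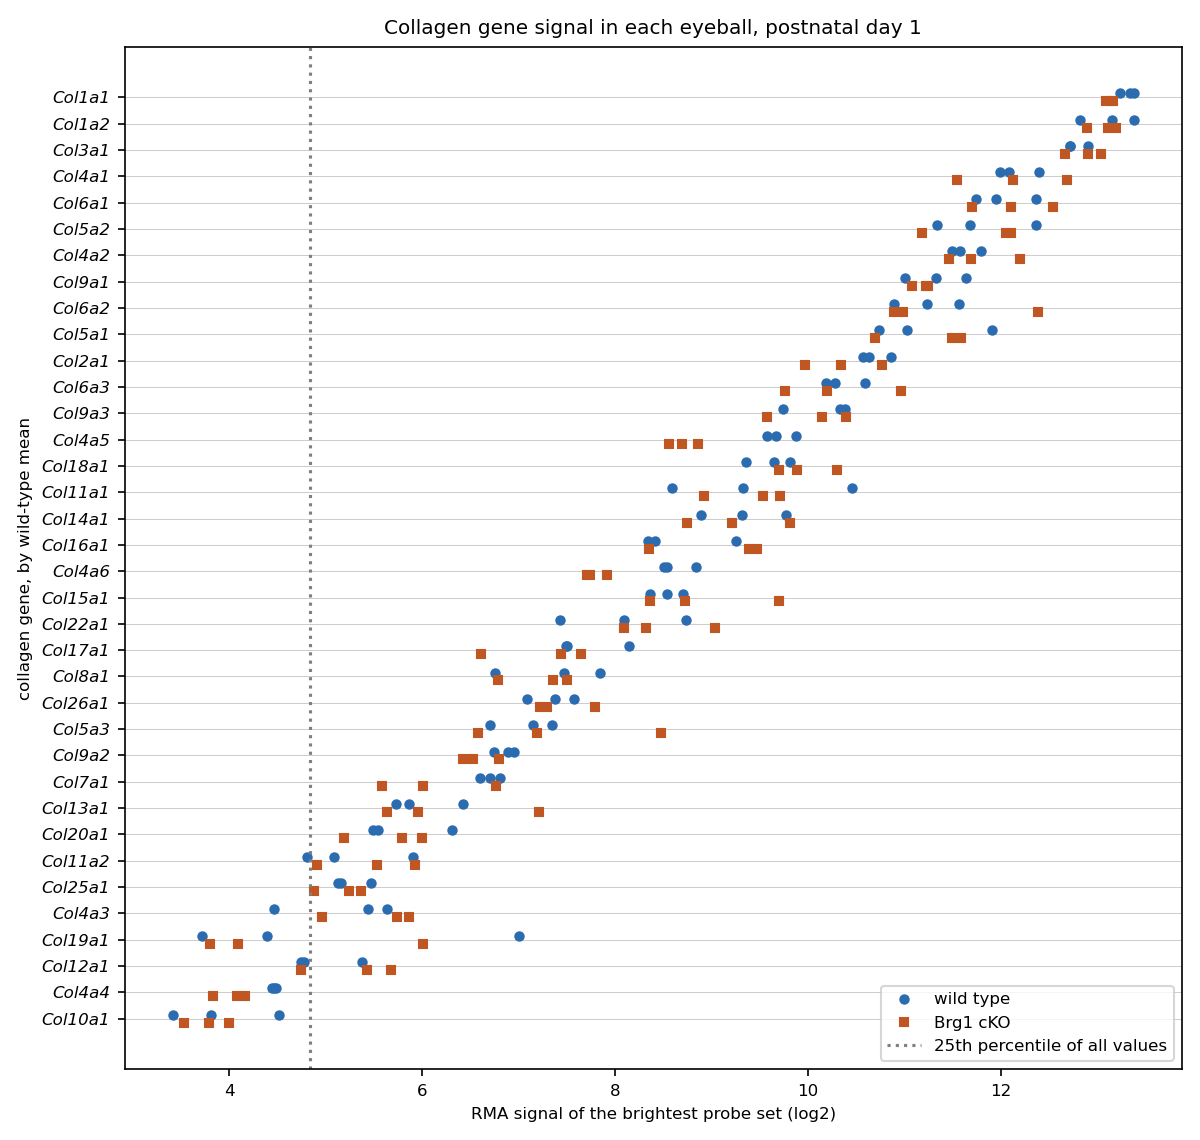
Log2 RMA signal of the brightest probe set of each of the 36 collagen genes in 3 wild-type (circles) and 3 Brg1 cKO (squares) eyeballs, ordered by the wild-type mean. The dotted line is the 25th percentile of all values, and Col4a5 and Col4a6 show a clear gap between the genotypes.

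The genes that make, bind and break down collagen showed 1 change past the test. Among 13 collagen-degrading enzymes and inhibitors, Mmp3, the secreted protease stromelysin 1, which cleaves type 4 and other nonfibrillar collagens, read 5.18, 5.09 and 5.30 in wild type against 10.69, 11.69 and 11.60 in Brg1 cKO. The groups lay far apart, by 6.14 (SE 0.29, limma adjusted p = 0.00054). No fold is given, since the wild-type values were nearly as dim as the 25th percentile of all values, and differences are compressed there. Timp1, which inhibits such proteases, read 7.66, 6.28 and 7.91 against 9.25, 11.37 and 10.19 (limma adjusted p = 0.132). Mmp2, the gelatinase that degrades type 4 and denatured collagen, differed by 0.70 (SE 0.29, limma adjusted p = 0.579).

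None of the 17 genes of collagen modification and folding passed the limma test in either direction. At an unadjusted p under 0.05, 1 of these 17 passed, against 9.3% of all genes, and their median difference was 0.17. The smallest p in that group was that of Plod3, a lysyl hydroxylase that also glycosylates collagen, at 0.63 (SE 0.26, limma adjusted p = 0.57). Serpinh1, the collagen chaperone, differed by -0.17 (SE 0.34). None of 10 processing and crosslinking genes passed (1 at an unadjusted p under 0.05, against 9.3% of all genes). Among them Tgm2, a transglutaminase, differed by 0.89 (SE 0.35, limma adjusted p = 0.546), and Lox, the lysyl oxidase that crosslinks fibrils, by -0.07 (SE 0.36).

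None of 6 collagen receptors passed, at an adjusted or an unadjusted p, with Mrc2, which takes up collagen fragments, at 0.65 (SE 0.39). None of 14 laminins and other partners of type 4 collagen passed (1 at an unadjusted p under 0.05, against 9.3% of all genes). Lama3, a chain of the laminin of epithelial attachment, read 6.54, 6.33 and 6.13 against 6.66, 8.38 and 7.53 (limma adjusted p = 0.469), and Nid1, which links laminin to type 4 collagen, differed by -0.45 (SE 0.30). Beside these, the 9 listed macrophage genes all had positive differences, with a median of 1.17 and a summed intensity of 2407 to 3221 in wild type and 5184 to 12450 in Brg1 cKO. Of them Cd14 passed the limma test (adjusted p = 0.00824, and 0.0714 and 0.0564 without wild-type replicate 1 or 2). The wild-type mean of Cd14 was 4.41, under the 25th percentile of all values, where differences are compressed. The part of macrophages in the Mmp3 and Timp1 values was not tested.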

How the data were processed

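RNA of individual eyeballs was profiled on Affymetrix GeneChip mouse genome arrays. Amplification by the NuGEN Ovation system started from 50 ng of RNA, per the labels. The authors normalised the arrays by RMA (software and version not given in the sources used here) and deposited linear intensities, with no detection calls. Array medians were 169.1 to 185.5, and correlations between arrays were 0.957 to 0.988. Normalization and amplification compress differences at both ends of the scale, and 3 arrays per genotype limit the precision.

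The deposited intensities were converted to log2 here. The 64 array control rows were left out, which left 22626 probe sets. Genes were named from the platform annotation, which gave 1 symbol to 20380 probe sets, several to 691 and none to 1555. A RefSeq table held all 36 collagen gene identifiers, and 9 further collagen symbols were not analysed here. Genotypes were compared in limma 3.58.1 (R 4.3.3) by a model without covariates, with a two-sided moderated test and Benjamini-Hochberg adjustment over all probe sets, after tests on simulated data. Classes and lists were described by counts and medians. Array values are given for collagen genes past an unadjusted p under 0.05 and a fold over 1.5, the 10 brightest and the type 4 pairs, and for other lists the genes past the threshold and up to 3 with the smallest p. Lox, Serpinh1, Krt1, Krt5, Krt10, Krt14, Lor, Perp, Trp63, Matn1, Nid1 and the other collagens named with values were chosen after their values were seen. So was the check against Xist. The members and lists were chosen with earlier results of these data known. Groups follow the labels. Alternatives were other normalizations, an intensity filter, an intensity trend, array weights, all probe sets of a gene, the replicate number as a block, template matching, and each array left out in turn.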

Additional observations from a re-analysis of the deposited data

How the results depend on the processing

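No collagen gene passed the adjusted threshold under any of the 13 alternatives run. Col4a5 and Col4a6 passed the unadjusted p with the fold in each. Their differences were -1.08 to -0.92 and -0.91 to -0.74, with limma adjusted p-values of 0.0526 to 0.334 and 0.0926 to 0.524. With array weights, and without Brg1 cKO replicate 2, 3 collagen genes passed the unadjusted p with the fold. The count of collagen genes without overlap was 4 to 10 when each array was left out (11.1% to 27.8%, against 22.7% to 28.8% of all genes), and the count of partner and marker genes past the adjusted threshold, 5 with all arrays, was 2 to 15. It was 2 without wild-type replicate 1 or 2, 3 without wild-type replicate 3 and 15 without Brg1 cKO replicate 2. Mmp3 and Krt12 passed in all these fits, Cd14 in 4, Cnmd in 3 and Gja3 in 1 of 6. The labels do not say whether the replicate numbers pair the samples. Deviations of same-numbered arrays correlated at 0.06, 0.082 and 0.125, and those of differently numbered arrays at -0.313 to 0.231. Deviations from means of 3 arrays cannot show whether the samples were paired. With the replicate number as a block, the limma adjusted p was 0.212 for Col4a5 and 0.241 for Col4a6, and 0 collagen genes passed.

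Of 181 differences recomputed for 14 named collagen genes, 157 kept their sign and 24 did not, and Col1a1, Col4a4, Col4a5 and Col4a6 kept it throughout. With each array left out, the ranges were -0.20 to 0.08 for Col1a2, -0.31 to 0.26 for Col4a1, -0.12 to 0.30 for Col6a1, -0.25 to 0.28 for Col5a2, -0.049 to 0.322 for Col4a2, -0.303 to 0.012 for Col9a1, -0.29 to 0.46 for Col6a2, -0.21 to 0.37 for Col5a1 and -0.016 to 0.625 for Col4a3. The mean of all probe sets gave -0.075 for Col3a1, 0.021 for Col4a1 and -0.064 for Col5a1. A second quantile normalization gave 0.002 for Col4a1 and 0.019 for Col5a2, and centring on the median gave -0.013 for Col5a1. Array weights gave -0.027 for Col6a2 and -0.036 for Col5a1. The cause of these reversals was not tested. Class medians moved by less than the SD of the mutant arrays under the block, the other normalizations and the mean of all probe sets. With each array left out they ran from -0.167 to 0.169 for all collagens, -0.206 to 0.233 for the fibrillar, -0.312 to -0.07 for the vitreous and -0.181 to 0.242 for the basement membrane genes, so that a sign of the class median holds for the vitreous genes only among these 4 groups.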

Other observations

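Bone genes varied widely between eyeballs of the same genotype. Ibsp, which encodes bone sialoprotein, read 9.52, 2.75 and 8.76 in wild-type eyeballs against 2.36, 8.51 and 4.55 in Brg1 cKO eyeballs. The 5 listed bone genes had a summed intensity of 205 to 1217 in wild type and of 226 to 1010 in Brg1 cKO, lowest in wild-type replicate 2 and in Brg1 cKO replicate 1. Mmp13, the collagenase of cartilage and bone, read 5.85, 2.47 and 6.08 against 3.41, 6.58 and 5.71, and Mmp9, a gelatinase of osteoclasts and neutrophils, read 8.32, 4.56 and 8.04 against 6.57, 9.44 and 7.28. Both proteases were also lowest in wild-type replicate 2 and, among the mutants, in replicate 1. The fibrillar collagens shifted by -0.50 in the first of these arrays, against the other controls, and by -0.35 in the second, against all controls. These genes were chosen after their values were seen, and the part of bone in the collagen values was not tested.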
